A study of Rattus norvegicus with 12 samples.

Results

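Transcripts of the enzymes that add chemical marks to histones and DNA, or take them off, were followed in the medial prefrontal cortex of Wistar rats by RNA sequencing. Members were chosen by gene symbol: the numbered HDAC, sirtuin, KAT, KMT2, KMT5, KDM, DNMT and TET genes, together with Crebbp, Ep300, Ezh1 and Ezh2. A member also had to reach a normalized count of at least 10 in at least 3 libraries, a rule that uses level and not any difference between groups. It gave 51 of the 15939 genes in the table, all of which passed the level filter, so no matching row lay outside it. The member nearest to the filter was Dnmt3b, whose values ran from 3.07 to 41.5, and the next was Tet1, from 12.3 to 60.4. Sorted by the activity of their gene family, they were 16 deacetylases, 6 acetyltransferases, 8 histone methyltransferases, 15 histone demethylases and 6 enzymes of DNA methylation. Sirt1, Hdac6, Kat2b, Ep300, Kmt2d and Kdm5c are not analysed here.

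The animals were 3 months old (young) or 22 months old (aged). In the performing groups attention was trained and measured in an operant task; age-matched nonperforming animals met the same context with no cognitive work. Of each group there were 3 libraries, coded YN (young nonperforming), YP (young performing), AN (aged nonperforming) and AP (aged performing), with numbers that only name the libraries. The labels name no genetic change, drug or sex, and do not say that the libraries of a group came from separate animals. Each p-value therefore weighs a difference against the spread between libraries within groups, which may be technical. Normalized counts are reads over a size factor per library, and differences are on the scale log2(normalized count + 1), which understates the change of low genes.

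DNA in the nucleus is wound on histones, and acetyl groups on histone tails loosen that packing while deacetylases remove them. Methyl groups on histones act by position: methylation of lysine 4 of histone H3 marks promoters and enhancers of active genes, whereas methylation of lysine 27 marks genes silenced by Polycomb. DNA methyltransferases place methyl groups on cytosine, and TET dioxygenases oxidise them on the way to removal. In neurons these enzymes are known for their part in activity-dependent transcription and in memory, and histone deacetylases are much studied in the aged brain.

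The sequences upstream of 4 of the genes are shown because these genes stand for the patterns described below. Tet2 and Hdac4 were lowest in a pair of young libraries, Hdac1 was highest in the same pair, and Kdm6b had the smallest p for performance. Each is the stretch of 250 bases before the RefSeq start on build GRCr8, printed 5′ to 3′ along the gene, with capitals marking the GC box (GGGCGG or CCGCCC on the other strand) and the CCAAT box (CCAAT or ATTGG). The stretches lie on the minus strand at chr2:224746187-224746436 for Tet2, chr9:100197638-100197887 for Hdac4, chr5:147165388-147165637 for Hdac1 and chr10:54641015-54641264 for Kdm6b.
Tet2: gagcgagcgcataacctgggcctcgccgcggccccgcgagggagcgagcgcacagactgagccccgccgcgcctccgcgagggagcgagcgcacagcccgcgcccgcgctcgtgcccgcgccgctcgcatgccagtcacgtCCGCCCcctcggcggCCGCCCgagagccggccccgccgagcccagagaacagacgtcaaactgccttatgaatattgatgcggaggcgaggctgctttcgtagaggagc
Hdac4: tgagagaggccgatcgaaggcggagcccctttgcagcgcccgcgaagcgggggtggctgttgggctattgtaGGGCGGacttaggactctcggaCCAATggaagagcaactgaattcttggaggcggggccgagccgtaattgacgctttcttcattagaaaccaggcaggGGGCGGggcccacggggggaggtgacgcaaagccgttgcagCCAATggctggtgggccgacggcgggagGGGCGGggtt
Hdac1: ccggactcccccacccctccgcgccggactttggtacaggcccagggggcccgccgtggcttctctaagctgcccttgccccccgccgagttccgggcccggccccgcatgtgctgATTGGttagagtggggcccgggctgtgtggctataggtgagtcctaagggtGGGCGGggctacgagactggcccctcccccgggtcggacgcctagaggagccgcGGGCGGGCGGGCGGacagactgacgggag
Kdm6b: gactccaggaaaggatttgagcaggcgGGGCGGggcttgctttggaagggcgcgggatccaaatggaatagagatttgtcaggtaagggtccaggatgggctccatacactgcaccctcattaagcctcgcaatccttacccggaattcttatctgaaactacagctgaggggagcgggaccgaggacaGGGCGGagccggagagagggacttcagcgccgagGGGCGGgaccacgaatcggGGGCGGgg
The Tet2 stretch was 72.8% G and C, with 38 CpG dinucleotides and 2 GC boxes. The Hdac1 stretch was as rich, at 72.4%, with 23 CpG, 4 GC boxes (counting overlapping matches separately) and 1 CCAAT box. The Hdac4 stretch had 3 GC boxes and 2 CCAAT boxes, and that of Kdm6b had 4 GC boxes and no CCAAT box.

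RefSeq gave such a stretch for 43 of the 51 members; Hdac11, Sirt6, Kat2a, Kat6a, Kmt2a, Kmt2e, Ezh1 and Dnmt3b had none in the table used. The median G and C content of the 43 was 59.6%, against 58.8% over the 12626 genes of the table with a stretch, and the median number of CpG was 16 against 14. A GC box was present in 27 of them (62.8%, against 52.4% of all stretches) and a CCAAT box in 18 (41.9% against 35%). The letters TATAAA or TTTATA occurred in 1, that of Tet1 (2.33% against 8.04%), and the cAMP response element TGACGTCA in none (0% against 2.47%). These are matches of letters in a fixed window and not sites of binding.

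Read totals ran from 22189094 in AP1 to 42205582 in YP3, and YN3, with 36657127, was the second deepest. Markers of cortical excitatory neurons were present in every library (7 of 7 genes), with summed normalized counts of 32282 to 51212 in YN, 35577 to 48125 in YP, 38491 to 52383 in AN and 27207 to 38181 in AP. Some libraries stood apart in markers of other tissue or other cell types. The 5 choroid plexus markers summed to 38104 in YN3 and to at most 211 elsewhere, and the 4 endothelial markers in the table to 13427 in YN3 and 10750 in YP3 against at most 6629 elsewhere. The oligodendrocyte sum was highest in YN3 (368516), followed by AN3 (298448) and YP3 (273083). The 5 olfactory bulb markers in the table summed to 10083 in YP2, 8854 in AP1 and 14101 in AP3, and lay between 1540 and 3605 in the other 9 libraries. The 5 meninges markers were also highest in those 3, at 5725, 3837 and 6364 against at most 3096 elsewhere. The striatum sum was highest in YP3 (12926, at most 9270 elsewhere) and the blood sum in AN3 (38273, at most 14728 elsewhere). The microglia sum was highest in AP2 (10998, at most 7127 elsewhere). Results below are therefore also given without YN3, without YP3, or without YP2, AP1 and AP3. The last leaves AP2 as the only AP library, which the fit takes to vary like the other groups. In bulk tissue, fewer cells of a type and less RNA per cell cannot be told apart.

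No enzyme passed the test in any of the 7 comparisons. With limma and Benjamini-Hochberg adjustment over 13496 genes, 0 of 51 members reached an adjusted p under 0.05 for age, for performance, for either within a level of the other, or for their interaction, and 0% of all genes did. The edgeR quasi-likelihood test and DESeq2 on the recovered reads also called 0 members in each of the 7. At an unadjusted p under 0.05, limma counted 3 members for age averaged over performance (Hdac2, Kat6a and Kmt2a; 5.88% of members beside 7.5% of all genes). It counted 1 for performance averaged over age (Kdm6b; 1.96% beside 10.1%). In the other comparisons it counted 0 members, beside 3.17% of all genes for age in nonperforming rats, 3.45% for age in performing rats, 1.21% for performance in young rats, 9.46% for performance in aged rats and 1.03% for the interaction. What follows therefore describes levels and their spread.

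**Figure D1:**
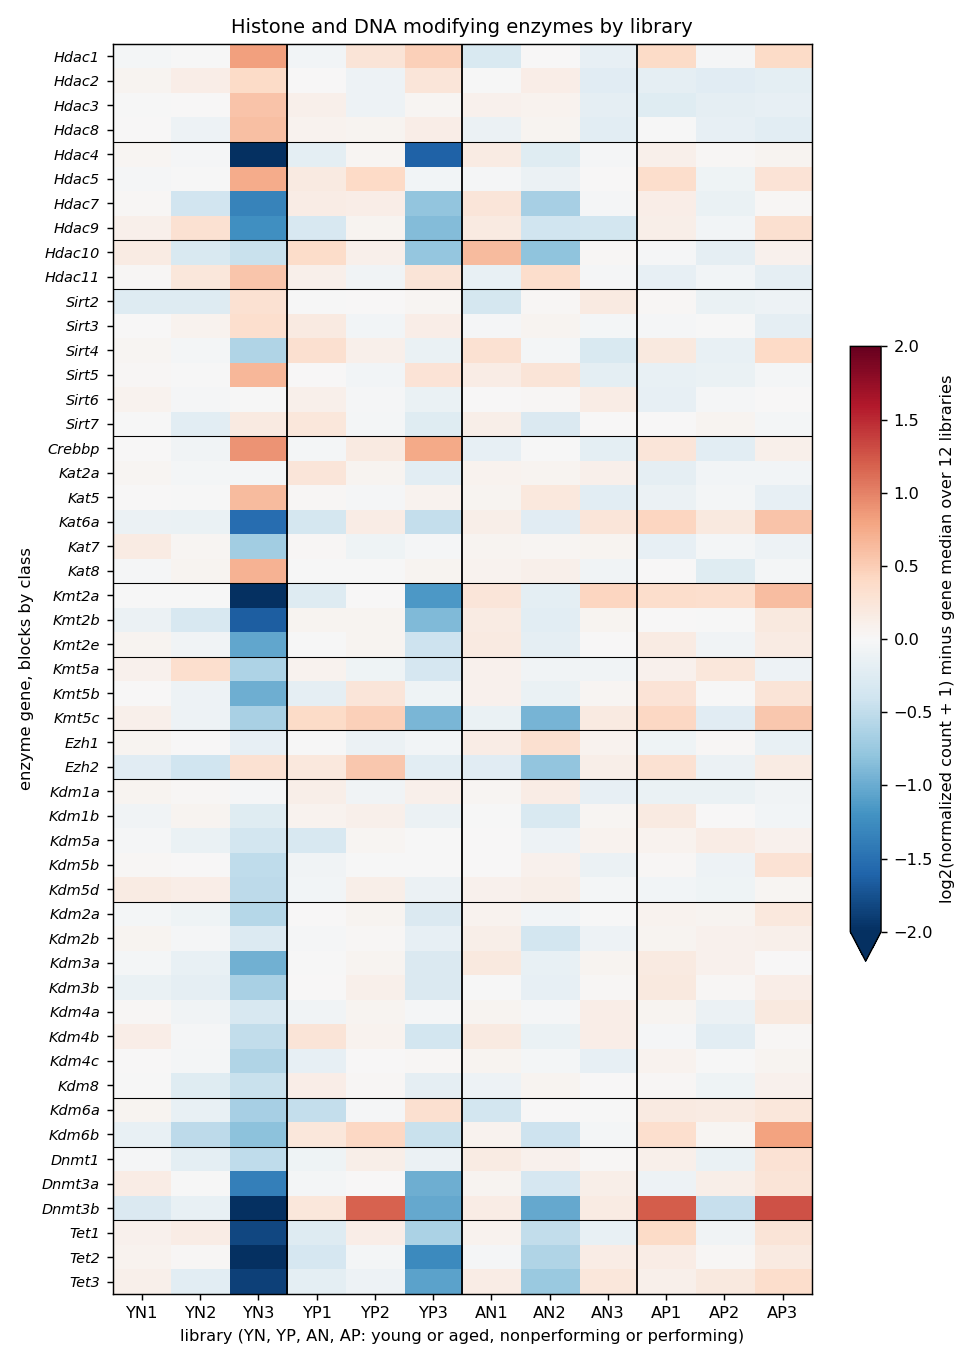
Level of each of the 51 enzyme genes (rows, in blocks by class) in the 12 libraries (columns), as log2(normalized count + 1) minus the gene's median over the libraries; red is above and blue below the median, and values under -2 share the darkest blue. The column of YN3 is blue, from pale to dark, for most demethylase, KMT2, DNMT and TET genes and red for the class I deacetylases, and YP3 shows a fainter form of that column for many of them.

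Libraries of the same group differed widely for many members. YN3 was the lowest of the 12 libraries for 30 of the 51 members (58.8%, against 30.6% of all genes) and the highest for 12 (23.5% against 30.3%). YN3 and YP3 were both below the other 10 libraries for 17 members (33.3% against 19%) and both above them for 5 (9.8% against 15.4%). The median member lay 0.52 below its median over the other libraries in YN3 (a deviation of -0.52 on the log2 scale). The median deviation over all genes was 0.00 there, and near 0 in every library (from -0.0079 in YP2 to 0.0122 in YP3). Size factors scale each library as a whole, so a median near 0 over all genes is largely set by the normalization. In YN3, 70.6% of members and 54.4% of all genes lay more than 0.5 above or below their median over the other libraries. By class, the median deviation in YN3 was -1.96 for the 3 TET genes, -1.65 for the 3 KMT2 genes, -1.37 for the 3 DNMT genes and -1.32 for the class IIa deacetylases, and 0.60 for the class I deacetylases. Of the 4 groups, YN had the largest SD on the log2 scale for 36 members (70.6% against 54.9% of all genes), and AP had it for 0 (0% against 11.2%). YN3 was also the library with choroid plexus markers and the highest oligodendrocyte sum, and whether these share a source with its enzyme levels was not tested.

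Most class I deacetylases work in the nucleus within repressor complexes. Hdac1 had normalized counts of 614, 630 and 1116 in YN, 611, 761 and 883 in YP, 511, 636 and 567 in AN, and 827, 623 and 826 in AP. YN3 and YP3 were the highest, AN had the lowest mean, and the ranges of AN and YN overlapped (571 ± 62.3 and 787 ± 285, SD, n = 3). Hdac2, a deacetylase linked to memory, had 2075, 2202 and 2617 in YN, 2008, 1870.0 and 2379 in YP, 2006, 2203 and 1723 in AN, and 1771, 1724 and 1752 in AP. The 3 AP libraries were close together and below all of YP, while AN spanned the gap.

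Hdac3, the catalytic subunit of the NCoR and SMRT corepressors, had 1714, 1716 and 2557 in YN, 1836, 1603 and 1761 in YP, 1828, 1792 and 1520.1 in AN, and 1449.8, 1517 and 1538 in AP. Here too AP lay below YP without overlap, and YN3 was far above the other libraries. Hdac8 had a mean of 343 ± 96.0 (SD, n = 3) in YN, 315 ± 8.75 in YP, 280 ± 27.1 in AN and 273 ± 20.2 in AP, with its highest value, 453, in YN3. All 4 class I genes had a fitted change below 0 with age averaged over performance, from -0.23 for Hdac8 and Hdac2 to -0.20 for Hdac1, with a class median of -0.22. All 4 were below 0 without YN3 too, with a median of -0.12, and after TMM rescaling or quantile normalization, but without both YN3 and YP3 only 3 of 4 were (median -0.11). Hdac2 had the smallest p of the class (change -0.23, SE 0.10, adjusted p = 0.54 by limma).

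Class IIa deacetylases shuttle between nucleus and cytoplasm in response to calcium signals. Hdac4 had 928, 888 and 193 in YN, 785, 920 and 291 in YP, 1012, 760 and 884 in AN, and 962, 910 and 938 in AP. Apart from YN3 and YP3 the libraries lay between 760 and 1012 in both ages. Hdac5 went the other way in YN3, with 3761, 3792 and 6395 in YN against 3549 to 5047 in the other 3 groups. Hdac9 was 185 in YN3 and 238 in YP3, and 328 to 539 elsewhere, and Hdac7 was 213 and 313 there against 341 to 635. The fitted age change of Hdac4 in nonperforming rats was 0.70 (SE 0.55) with all libraries and -0.05 without YN3.

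Hdac10, which acts on polyamines, and Hdac11, the only class IV enzyme, did not share a direction: their age changes were 0.10 (SE 0.25) and -0.22 (SE 0.12). Hdac11 had a mean of 6092 ± 1166 in YN, 5374 ± 604 in YP, 5265 ± 1004 in AN and 4549 ± 210 in AP (SD, n = 3 each). Sirtuins are deacylases that need NAD. Sirt2, a largely cytoplasmic member abundant in oligodendrocytes, had its highest value, 7077, in YN3 and its next, 6474, in AN3. The same libraries led the oligodendrocyte marker sum, and whether these are linked was not tested. The mitochondrial Sirt3 ran from 1523 to 2163 and Sirt5 from 2100.2 to 3776, both highest in YN3. Sirt6, a chromatin-bound deacetylase, had the smallest SE of the class and ran from 620 to 769 over all 12 libraries, with group means of 700 ± 23.3, 688 ± 53.6, 726 ± 37.4 and 668 ± 42.0 in YN, YP, AN and AP. Sirt4 ran from 59.1 to 120 counts, lowest in YN3, and Sirt7 from 354 to 508.

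Acetyltransferases, which write the mark, split in YN3. Crebbp, the CREB-binding coactivator, had 1022, 972 and 1896 in YN, 992, 1163 and 1732 in YP, 915, 1021 and 890 in AN, and 1202, 880 and 1102 in AP. It was thus highest in YN3 and YP3, as Hdac1, Hdac2, Hdac8 and Sirt5 were, and its age change of -0.33 (SE 0.19) became -0.17 without YN3. Kat5 and Kat8, the catalytic subunits of the TIP60 and MOF complexes, were also highest in YN3, at 2336 and 1350.2 counts against at most 1747 and 893 elsewhere.

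Kat6a, a MYST family enzyme that acetylates histone H3, ran against these. It had 1478, 1460.3 and 557 in YN, 1258, 1774 and 1146 in YP, 1736, 1370.0 and 1887 in AN, and 2162, 1830.0 and 2385 in AP. Every AP library was above every YP library, and AN overlapped both young groups. Kat6a had the smallest p of any member for age (change 0.63, SE 0.23, adjusted p = 0.54 by limma), and the change was 0.40 without YN3. Kat2a, the acetyltransferase of SAGA, had the smallest mean absolute change of its class over the comparisons within an age or performance level. Its group means were 2709.9 ± 78.0 in YN, 2819 ± 432 in YP, 2882 ± 52.7 in AN and 2564 ± 131 in AP. Kat7, the catalytic subunit of HBO1 complexes, was 1285 in YN3 and between 1862 and 2335 in the other 11 libraries.

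**Figure D2:**
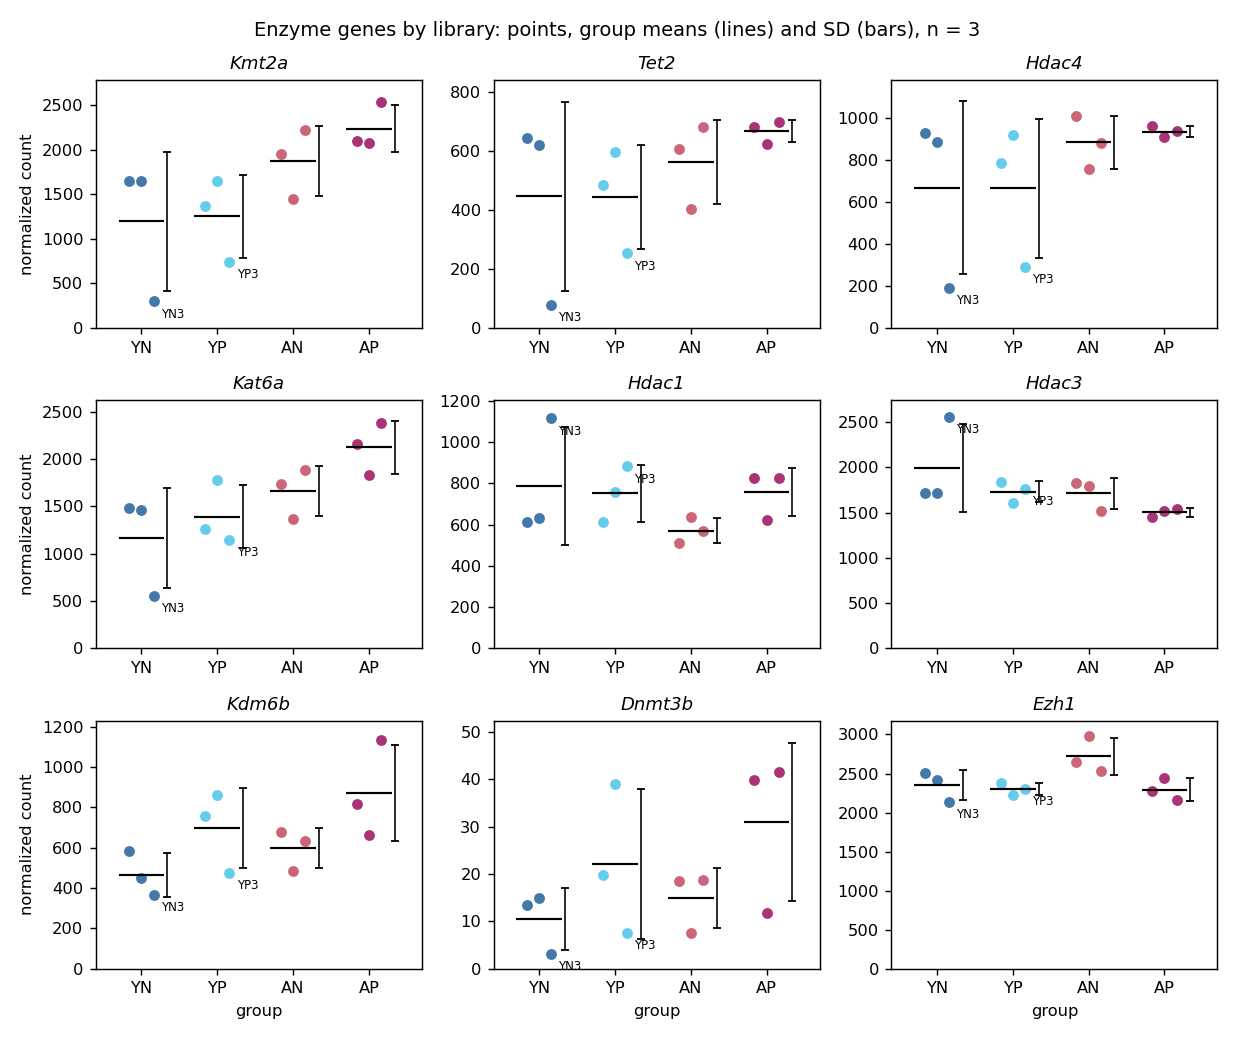
Normalized counts of 9 enzyme genes in each library (points), with the mean of the 3 libraries of a group (line) and the SD (bar); each panel has its own axis, starting at 0. In the Kmt2a, Tet2, Hdac4 and Kat6a panels YN3 is the lowest point, at 298, 77.6, 193 and 557 counts, in the Hdac1 and Hdac3 panels it is the highest, at 1116 and 2557, and in the Kdm6b panel AP3 is the highest, at 1133.

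The KMT2 family is named for methylation of lysine 4 of histone H3. Kmt2e was placed in it by symbol, and its activity was not examined. Kmt2a had the largest age difference of any member. It had 1649, 1648 and 298 in YN, 1374, 1654 and 741 in YP, 1959, 1447 and 2224 in AN, and 2098, 2080.2 and 2544 in AP. YN3 and YP3 were the lowest, AP was above all young libraries, and AN overlapped YN and YP through its second library. The age change averaged over performance was 0.95 (SE 0.39, adjusted p = 0.54 by limma) and 0.54 without YN3. Kmt2b had 514 in YN3 and 876 in YP3 against 1297 to 1856 elsewhere, and Kmt2e 1541 and 2382 against 2797 to 3591. With age in nonperforming rats all 3 KMT2 genes were fitted above 0, with a median of 0.70, which was 0.16 without YN3.

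The KMT5 enzymes methylate lysine 20 of histone H4. Kmt5b, which adds further methyl groups after the monomethylase, had 1323, 1229 and 673 in YN, 1167, 1555 and 1244 in YP, 1398, 1197 and 1351 in AN, and 1596, 1316 and 1571 in AP. Its highest values were in AP1, AP3 and YP2, the libraries with the highest olfactory bulb and meninges marker sums, and its lowest in YN3. Kmt5c had its highest values, 841, 806 and 879, in the same YP2, AP1 and AP3. Kmt5a, the monomethylase, ran from 197 in YN3 to 380 in YN2.

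Ezh1 and Ezh2 are the alternative catalytic subunits of Polycomb repressive complex 2, and Ezh1 is the form of cells that no longer divide. Ezh1 had 2504, 2422 and 2138 in YN, 2375, 2221 and 2307 in YP, 2650.2, 2984 and 2531 in AN, and 2272, 2448 and 2166 in AP. All AN libraries were above all others, and YN, YP and AP overlapped. Ezh1 had the smallest p of any member for performance in aged rats (change -0.24, SE 0.11, adjusted p = 0.526 by limma), and the change was -0.15 without YP2, AP1 and AP3, where AP2 alone stood against the 3 AN libraries. The difference between the ages in the effect of performance did not pass either (interaction -0.21, SE 0.16, adjusted p = 1). Ezh2 had means of 126 ± 33.7, 154 ± 39.1, 111 ± 34 and 145 ± 21.4 in YN, YP, AN and AP (SD, n = 3), and its highest value, 193, was in YP2.

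Among the demethylases of lysine 4, Kdm1a, the flavin-dependent enzyme LSD1, was nearly flat, with means of 1594 ± 41.6 in YN, 1634 ± 115 in YP, 1588 ± 169 in AN and 1458 ± 31.5 in AP. Every AP library of Kdm1a (1439.8 to 1495) was nevertheless below every YP library (1501 to 1706). Kdm5a, a JmjC enzyme, had the opposite order in those groups, with 960, 1230.1 and 1185 in YP and 1258, 1324 and 1274 in AP. Kdm5b ran from 1289.5 in YN3 to 2239 in AP3. Kdm5d, which lies on the Y chromosome, was read in all 12 libraries, at 442 in YN3 and 586 to 710 elsewhere.

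The KDM2, KDM3, KDM4 and KDM8 genes make enzymes that act mainly on lysines 9 and 36 of histone H3. All 8 were fitted above 0 with age averaged over performance, from 0.05 for Kdm2b to 0.29 for Kdm3a, with a median of 0.12. It was 7 of 8 without YN3 (median 0.07), 6 of 8 without both YN3 and YP3 (median 0.06) and 7 of 8 after quantile normalization. Kdm3a had 1409, 1303 and 747 in YN, 1447, 1499 and 1189 in YP, 1656, 1302 and 1498 in AN, and 1637, 1544 and 1452 in AP. Outside YN3 and YP3 its libraries lay between 1302 and 1656. Kdm3b had means of 1499 ± 274, 1790.2 ± 243, 1792 ± 129 and 2016 ± 121 in YN, YP, AN and AP, and its 3 highest values (2126, 2033 and 1994) were in AP1, AP3 and YP2. Kdm4a had the smallest mean absolute change of the 8 over the comparisons within an age or performance level. It ran from 1061 in YN3 to 1513 in AP3.

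The KDM6 enzymes remove methyl groups from lysine 27, opposite to Ezh1 and Ezh2. Kdm6b, which neurons and immune cells induce on stimulation, had 584, 449 and 365 in YN, 758, 861 and 477 in YP, 676, 486 and 632 in AN, and 818, 663 and 1133 in AP. The 3 highest values were those of AP3, YP2 and AP1, and the performing and nonperforming libraries overlapped at both ages. The performance change averaged over age was 0.54 (SE 0.19, adjusted p = 0.475 by limma), the smallest p of any member there. It was 0.46 without YN3 and 0.28 without YP2, AP1 and AP3, whose olfactory bulb and meninges marker sums moved with it; their part in the result was not tested. The row listed as Kdm6a, its relative, had 140, 139 and 145 in AP, above all of AN (95.8 to 124), and 88.7 to 154 in YP. RefSeq gives the gene identifier of that row to Uty, the Y-linked paralogue, and lists Kdm6a among its synonyms, so which of the pair was counted is uncertain wherever Kdm6a is named here.

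Of the DNA methyltransferases, Dnmt1, which copies methylation after replication, had 948, 839 and 671 in YN, 902, 1041 and 882 in YP, 1071, 1021 and 970 in AN, and 1027, 875 and 1172 in AP. AN lay above YN without overlap. Dnmt1 had the smallest p of any member for age in nonperforming rats (change 0.33, SE 0.16, adjusted p = 0.727 by limma), and the change was 0.19 without YN3. Dnmt3a, the main de novo enzyme of neurons, had 172 in YN3 and 227 in YP3 against 351 to 533 elsewhere, with a mean of 370 ± 173 in YN and 478 ± 58.7 in AP.

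Dnmt3b, the other de novo enzyme, reached at most 41.5 counts in any library. It had 13.5, 15 and 3.07 normalized counts in YN, 19.7, 39.0 and 7.64 in YP, 18.5, 7.64 and 18.8 in AN, and 39.8, 11.9 and 41.5 in AP. The 3 highest values were again those of AP3, AP1 and YP2. Its performance change of 0.94 (SE 0.51) averaged over age was the largest of any member and became 0.12 without those 3 libraries.

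The 3 TET dioxygenases, which start the removal of DNA methylation, were the class farthest below the median over the other libraries in YN3. Tet2 had 643, 619 and 77.6 in YN, 484, 597 and 253 in YP, 605, 403 and 680 in AN, and 682, 624 and 697 in AP. YN3 was the lowest and YP3 the next lowest, every AP library was above every YP library, and AN overlapped all groups. Tet3 had 81.4 in YN3, 141 in YP3, 178 in AN2 and 258 to 383 in the remaining 9, and Tet1 12.3, 29.3, 32.5 and 38.4 to 60.4 in the same libraries. The class median with age in nonperforming rats was 0.53, with 3 of 3 above 0, and -0.20 without YN3, with 0 of 3 above 0.

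The comparison of aged with young nonperforming rats shows how far 1 library carried the class medians. With all libraries 34 of 51 members were fitted above 0 (66.7%, against 50.8% of all genes), with a median of 0.15 beside 0.01 over all genes. Without YN3 it was 24 of 51, with a median of -0.01. The 6 enzymes of DNA methylation went from 6 above 0 and a median of 0.44 to 1 above 0 and -0.10, and the 15 demethylases from 12 and 0.17 to 7 and 0.00 (-0.0001). The class I deacetylases had 0 of 4 above 0, with a median of -0.24 that was -0.08 without YN3. Every AN library was above every YN library for 3 members, Kat2a, Ezh1 and Dnmt1 (5.88%, against 3.96% of all genes), and below for 0 (0% against 4.26%).

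**Figure D3:**
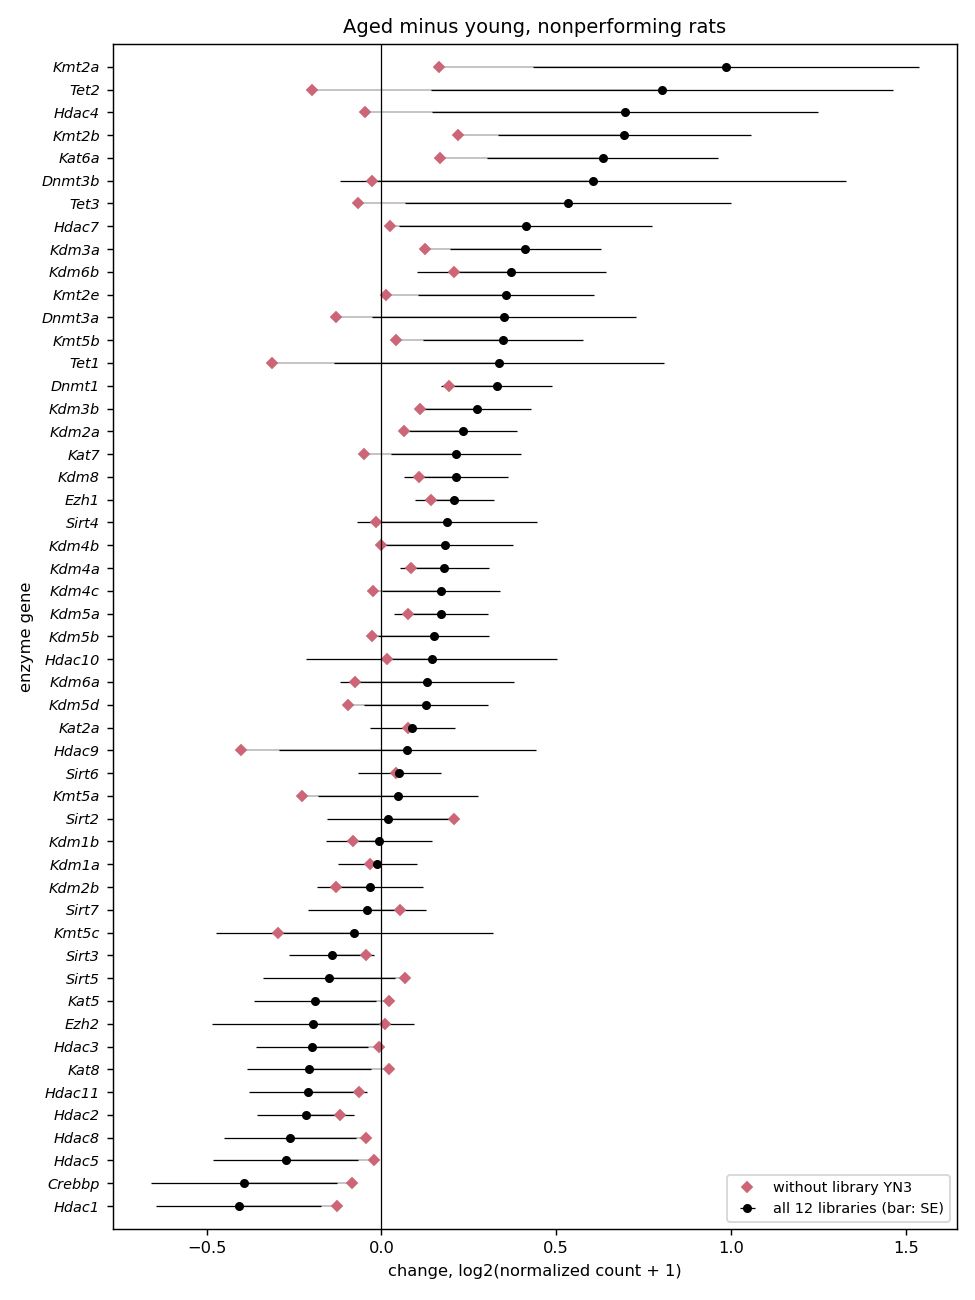
Fitted change (aged minus young, nonperforming rats) on the log2(normalized count + 1) scale for the 51 enzyme genes, with all 12 libraries (black points, SE bars) and without YN3 (red diamonds). The diamonds lie nearer to 0 than the points for most genes, as for Kmt2a (0.99 with all libraries and 0.16 without YN3), and the median moves from 0.15 to -0.01.

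Age separated more members in performing than in nonperforming rats, and it did so over all genes too. In nonperforming rats the shares of all genes were 3.96% above and 4.26% below. Every AP library was above every YP library for 7 members, Kat6a, Kmt2a, Kdm5a, Kdm2a, Kdm2b, Tet2 and Tet3 (13.7%, against 8.63% of all genes), and below for 5, Hdac2, Hdac3, Hdac8, Kat5 and Kdm1a (9.8% against 7.34%). No member passed, and the shares themselves were not tested. The fitted changes were 0.63 (SE 0.33) for Kat6a, 0.91 (SE 0.55) for Kmt2a, 0.67 (SE 0.47) for Tet3, 0.20 (SE 0.13) for Kdm5a and -0.25 (SE 0.14) for Hdac2, each with an adjusted p of 0.894 by limma. In all, 33 members were fitted above 0 (64.7% against 51.3%) with a median of 0.06, and 24 with a median of -0.03 without YP3. Averaged over performance, 35 were above 0 (68.6% against 50.8%) with a median of 0.12. That median was 0.04 without YN3 and -0.02 without both YN3 and YP3, where 22 of 51 were above 0. The 6 aged libraries did not lie wholly above or below the 6 young libraries for any member (0%, against 0.267% and 0.185% of all genes).

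For performance averaged over age, 36 members were fitted above 0 (70.6%, against 49.7% of all genes), with a median of 0.11. The members with the smallest p after Kdm6b were Kdm3b (0.22, SE 0.11, adjusted p = 0.527), Ezh1 (-0.14, SE 0.08, adjusted p = 0.569), Ezh2 (0.35, SE 0.20, adjusted p = 0.569) and Kmt5b (0.27, SE 0.16, adjusted p = 0.585), all by limma. The median was 0.02 without YN3 and 0.04 without YP2, AP1 and AP3. Without all 4 of these it was -0.05, with 16 of 51 above 0. YP2, AP1 and AP3 were together above the other 9 libraries for 5 members, Kmt5b, Kmt5c, Kdm3b, Kdm6b and Dnmt3b (9.8%, against 6.48% of all genes), and below them for 0 (0% against 6.92%). AP3 alone was the highest library for 15 members (29.4% against 11.8%).

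**Figure D4:**
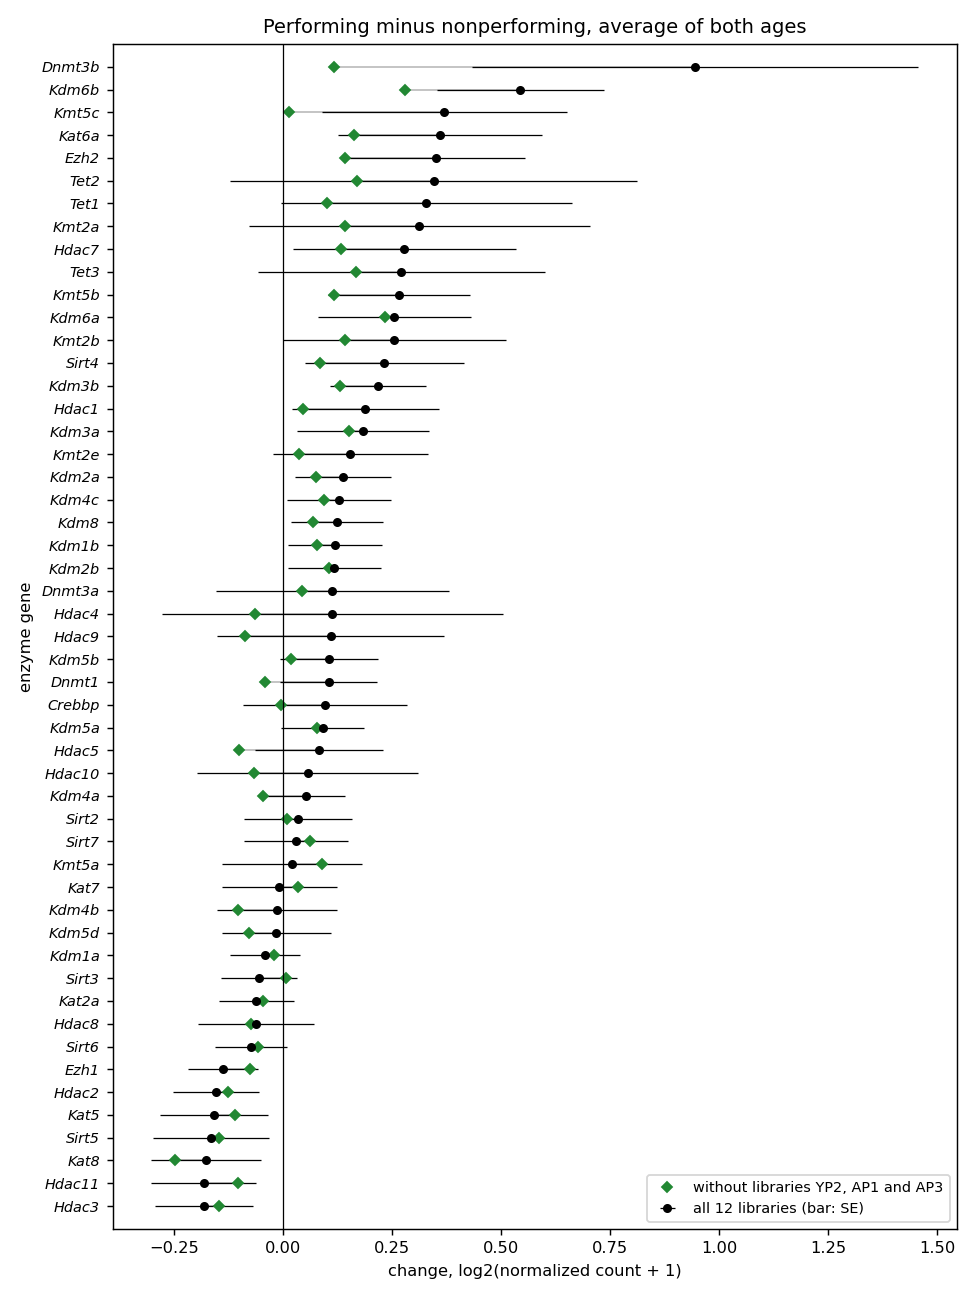
Fitted change (performing minus nonperforming, averaged over young and aged rats) on the log2(normalized count + 1) scale for the 51 enzyme genes, with all 12 libraries (black points, SE bars) and without YP2, AP1 and AP3 (green diamonds). Dnmt3b moves most, from 0.94 to 0.12, and Kdm6b from 0.54 to 0.28, and the median moves from 0.11 to 0.04.

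Within young rats, 36 members were fitted above 0 for performance (70.6%, against 49.5% of all genes) with a median of 0.11, and 25 with a median of -0.01 without YN3. No member had all YP libraries above or below all YN libraries (0%, against 2.94% and 1.87%). The smallest p values were those of Kdm6b (0.57, SE 0.27), Kdm3b (0.26, SE 0.16), Kmt5b (0.35, SE 0.23), Kdm8 (0.22, SE 0.15) and Kdm3a (0.30, SE 0.22), each with an adjusted p of 0.997 by limma. By activity, 15 of 15 demethylases were above 0 (median 0.13), and 7 of 15 without YN3 (median -0.01). This comparison and that of age in nonperforming rats share the YN libraries.

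Within aged rats, 33 members were fitted above 0 (64.7% against 49.5%) with a median of 0.08, and 24 with a median of -0.01 without AP1 and AP3 (and YP2), where AP2 was the only AP library. All AP libraries were above all AN libraries for Kdm3b and Kdm6a (3.92%, against 10.7% of all genes) and below for Sirt6, Kat2a, Kat7 and Ezh1 (7.84% against 10.8%). After Ezh1 the smallest p values were those of Kdm6b (0.52, SE 0.27), Hdac1 (0.40, SE 0.24), Ezh2 (0.42, SE 0.29) and Kat2a (-0.17, SE 0.12), with adjusted p of 0.566 to 0.699 by limma. In the interaction, the age change in performing minus that in nonperforming rats, 18 members were above 0 (35.3% against 49.4%) with a median of -0.04, which was 0.07 without YN3. The leading members were Ezh1, Hdac1 (0.43, SE 0.34), Kat2a (-0.22, SE 0.17), Kat7 (-0.29, SE 0.26) and Dnmt1 (-0.21, SE 0.22), each with an adjusted p of 1 by limma.

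Partners of these enzymes, a list of 110 genes for other writers and erasers, complex subunits, readers and the supply of cofactors, gave 98 tested genes, none of which passed in any comparison by limma, edgeR or DESeq2. At an unadjusted p under 0.05 limma counted 3 of them for age averaged over performance (7.5% of all genes), 1 for performance averaged over age (10.1% of all genes), 3 for performance in aged rats (9.46% of all genes) and 0 in the other comparisons. Their median change was 0.05 with age averaged over performance, with 58 of 98 above 0 (50.8% of all genes were), beside 0.12 for the enzymes, and 0.00 (-0.0045) with performance, with 48 above 0 (49.7% of all genes were). Ncoa3, a nuclear receptor coactivator, had 233 in YN3 and 422 in YP3 against 605 to 822 elsewhere. Its age change was 0.57 (SE 0.24, adjusted p = 0.54 by limma), and 0.33 without YN3. Setd2, which trimethylates lysine 36 of histone H3, had 943 in YN3 and 1311 to 1761 elsewhere. Its age change in nonperforming rats was 0.37 (SE 0.17, adjusted p = 0.727 by limma), and 0.14 without YN3. Acly, which makes acetyl-CoA in the nucleus and cytosol, had means of 5805 ± 268, 5445 ± 295, 6259 ± 554 and 5204 ± 294 in YN, YP, AN and AP, and a performance change in aged rats of -0.26 (SE 0.11, adjusted p = 0.509 by limma). Uhrf1, which brings Dnmt1 to DNA, had a performance change in young rats of -0.59 (SE 0.34, adjusted p = 0.997 by limma). Men1, the menin subunit of KMT2 complexes, had an interaction of -0.35 (SE 0.18, adjusted p = 0.9998 by limma).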

How the data were processed

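RNA was purified on RNeasy columns, and stranded mRNA libraries (TruSeq) were made from 1000 ng each, per the labels' protocols. The deposited values are normalized counts, a signal per gene and library in which the authors divided read counts by a size factor. Tools listed in the submitters' processing notes are Trimmomatic, Bowtie2, TopHat2, HTSeq and DESeq2, with build Rnor_6.0; versions and settings are not given in the sources used here. All values (100%) were whole multiples of a step particular to their library (tolerance 0.01), which recovered the reads for the count tests.

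The 13496 genes that reached 10 in 3 or more libraries were tested on log2(value + 1) with limma 3.58.1 (R 4.3.3, trend on, 4 group means, 8 residual and 3.3 prior degrees of freedom). There were 7 two-sided contrasts, each adjusted by Benjamini-Hochberg over all genes, with a threshold of 0.05. The script was tested on simulated data. Alternatives were other pseudocounts, filters and normalizations, edgeR 4.0.16, DESeq2 1.42.0, library quality weights, the title prefix as a covariate, robust shrinkage with statmod 1.5.0, only the groups compared, and leaving libraries out. The title prefix was VP for YN1 and YP1 and U for all others, so no aged library had VP. What the prefix stands for is not given. Leaving out YN3 and YP3 together was added after the data were seen, for their read totals.

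The members, classes and partner list were chosen with earlier results of these data known. Named in each contrast were members past the threshold and the 5 with the smallest p and a mean of at least 50. The member with the largest and that with the smallest mean absolute change of each class, and a fixed set of well-known enzymes, were also available for naming. Of the partners, the gene with the smallest p in a contrast was named, with an exception that is not reported here. Members whose groups did not overlap and those lowest or highest in a library were named after their values were seen. Upstream sequences came from RefSeq (GRCr8), matched by gene identifier. No lengths were at hand, so levels are not compared between genes.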

Additional observations from a re-analysis of the deposited data

How the results depend on the processing

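No paired analysis was possible because no label pairs the libraries and their numbers are only names. Members passing stayed at 0 in all 7 contrasts under every alternative run except library quality weights. Those gave 6 of 51 for performance averaged (Kdm6b 0.57, Ezh2 0.53, Hdac5, Hdac1, Kdm3b 0.19 and Ezh1 -0.15). For performance in aged rats they gave 1 of 51 (Hdac1 0.53). In both contrasts the share of members called was below the share of all genes called by the same fit. That fit stopped before convergence. Of 13496 genes it called 2837 for performance averaged, 1347 for performance in aged rats and 144 in young rats. It called 5 for age averaged and 4 for age in nonperforming rats. In these contrasts limma without weights and edgeR called 0. DESeq2 called 114, 89, 0, 2 and 7 genes there. A few genes also passed without YP1 (2, performance averaged), without YP2 (1 there and 2 in aged rats) and without YP2, AP1, AP3 and YN3 (1, age averaged). The latter reversed Kmt5b for performance averaged (-0.039) and in young rats (-0.082), Kdm3a in young rats (-0.047), and the interaction of Hdac1 (-0.11) and Kat7 (0.0071); the cause was not tested. Median changes of the members crossed 0 as given above. Each moved by less than 0.18, the pooled within-group SD between libraries of the mean level of the members. That SD includes YN3 and exceeds every median over the 51 members with all libraries. It could therefore not mark the loss of such a median. Leaving out 1 library gave medians of 0.04 to 0.17 for age averaged and 0.02 to 0.15 for performance averaged. The range was -0.006 to 0.25 for age in nonperforming rats and -0.03 to 0.14 for age in performing rats. For performance it was -0.01 to 0.22 in young and 0.03 to 0.14 in aged rats, and for the interaction -0.19 to 0.07. Without YP2, AP1 and AP3, AP2 is the only AP library.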
